A study of Caenorhabditis elegans with 2 samples.

Results

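mdt-26 is a protein-coding gene of Caenorhabditis elegans for a subunit of the Mediator complex, and it is described here as 1 gene of 19973 on the nuclear chromosomes. It was chosen by the signal of its peaks of RNA polymerase II, since it holds 2 of the 10 strongest peaks in the authors' optimal list. The signals and ranks of those peaks are therefore given as a description, with no test. The measurement was chromatin immunoprecipitation followed by sequencing, with an antibody to AMA-1, the catalytic large subunit of that polymerase. The animals were whole worms of the wild-type strain N2 at the L3 larval stage, labelled as pooled male and female and of unknown age. They form 1 group with 2 biological replicates, with no second condition. Control libraries were not analysed here. Every value is from whole animals, so more polymerase per cell and more cells with polymerase at the gene cannot be told apart.

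Mediator is a large complex that connects transcription factors on the DNA with RNA polymerase II at promoters. It has a core of several modules and a kinase module that can come on and off. In mammals the subunit that corresponds to mdt-26 is known for binding both the general factor TFIID and complexes that help the polymerase to elongate, through a domain shared with the elongation factor TFIIS. The RefSeq annotation names the worm product after that same domain.

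In the Ensembl annotation of WBcel235, the assembly also called ce11, mdt-26 (WBGene00016115) lies on the plus strand of chromosome II from 5661181 to 5665243, a length of 4063 bp. The longest of 3 annotated transcripts has 8 exons, 1686 bp of coding sequence, a 5′ untranslated part of 13 bp and a 3′ untranslated part of 873 bp. The other 2 are classed as noncoding RNA of the same gene, and 1 of them keeps intron 1 as exon. On the left, ift-43, which encodes a protein of transport along cilia, runs in the opposite direction, with 394 bp between the 5′ ends of the genes. On the right, C25H3.15 starts 85 bp further on, on the same strand. The interval searched ran from 1000 bp upstream of mdt-26 to 500 bp past its 3′ end, and a region was counted by its summit.

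The polymerase signal at mdt-26 was gathered in a pair of very strong peaks, in exon 1 and at the start of intron 2, with much weaker regions further along. The optimal list of 3052 peaks held 3 summits in the interval, all inside the gene. The peak at the 5′ end spanned 5661120 to 5661430, with its summit at 5661246 in the coding part of exon 1, 65 bp inside the gene. Its signal, column 7 of the authors' list in a unit not given in these sources, was 823 and ranked 4. The next peak spanned 5661620 to 5661984, with its summit at 5661810 in intron 2, 29 bp past the end of exon 2 and 629 bp inside the gene. Its signal of 762 ranked 7. The third peak, from 5662517 to 5662836, had its summit at 5662677 in exon 5, 1496 bp inside the gene, with a signal of 72.5 at rank 1853. The first pair had nearly equal signals, and the third peak had 0.0881 of the signal of the first. In all 3 transcripts the first and the third of these summits were exonic and the summit at 5661810 was intronic.

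The sequence under these summits is shown because both strong summits lie inside the transcribed part of the gene. The letters are from the plus strand of the RefSeq genome sequence of WBcel235, and no untranslated part is printed. In the flank the capitals mark the motif TATAAA; in the other sequences they mark the 21 bases centred on the summit.
Flank inside the first peak, chrII:5661120-5661180: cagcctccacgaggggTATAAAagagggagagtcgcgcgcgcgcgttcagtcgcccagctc
Coding part of exon 1, chrII:5661194-5661313: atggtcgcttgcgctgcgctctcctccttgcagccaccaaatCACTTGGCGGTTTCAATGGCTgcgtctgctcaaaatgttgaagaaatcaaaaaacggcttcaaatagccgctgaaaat
Exon 2 and the start of intron 2, chrII:5661710-5661910: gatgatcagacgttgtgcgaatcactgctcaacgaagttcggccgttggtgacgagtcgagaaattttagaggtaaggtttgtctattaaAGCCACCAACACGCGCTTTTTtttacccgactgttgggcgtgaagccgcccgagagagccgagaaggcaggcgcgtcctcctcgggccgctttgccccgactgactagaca
Part of exon 5, chrII:5662602-5662752: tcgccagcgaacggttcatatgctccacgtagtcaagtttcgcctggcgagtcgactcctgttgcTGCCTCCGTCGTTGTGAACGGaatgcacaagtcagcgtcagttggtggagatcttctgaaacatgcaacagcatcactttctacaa

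All 3 windows were rich in G and C. In 201 bp centred on the summit, the GC content was 54.2% in exon 1, 54.7% at intron 2 and 51.2% in exon 5, against 43.0% ± 5.82 (SD across the 3052 optimal peaks, which include these 3). Of those windows, 96.3%, 96.8% and 91.2% had a lower GC content than the windows of exon 1, intron 2 and exon 5. A search of the genome with each window found 0 other places at an E value of 0.001 or less. Of the bases around the first summit 13.9% were soft-masked as repeated in the RefSeq sequence, and 0% of those around the summits in intron 2 and exon 5.

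Short motifs were searched in the same windows on both strands. TATAAA was in none of the 3 windows of the gene, while 11.9% of the 3052 windows held it. AATAAA was in none of the 3 either, while 763 of the 3052 windows held it. GAGAGA was found once, on the plus strand in the window at intron 2, and 27.2% of all windows held it. TTTCAG was found once on the minus strand around each of the summits in exon 1 and exon 5, and 25.5% of all windows held it. No window of the gene held more than 1 of the motifs. In the flank of 61 bp between the start of the first peak and the 5′ end, TATAAA began 45 bp before the annotated 5′ end, on the strand of the gene. The same motif stood on the gene's strand in the 61 bp before the 5′ end of 1903 of 19973 protein-coding genes (9.53%), and of 79 of the 1213 genes with an optimal summit within 500 bp of the 5′ end (6.51%). The flank was searched after its letters had been seen.

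**Figure D1:**
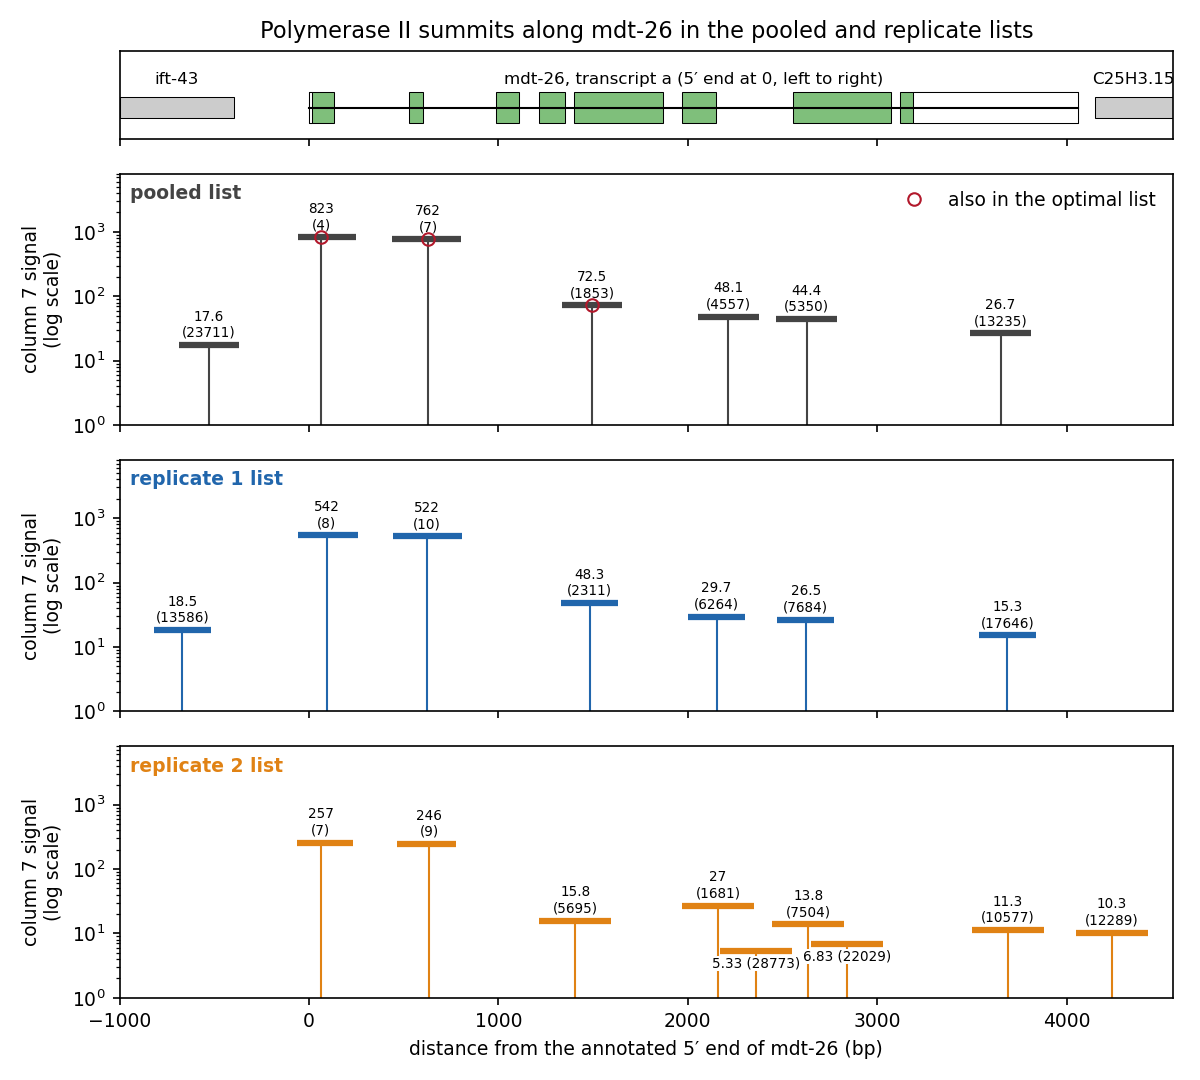
Summits of the pooled, replicate 1 and replicate 2 lists along mdt-26, by distance from the annotated 5′ end in bp (horizontal) and column 7 signal on a log scale (vertical), with horizontal bars for the extent of each region, the signal and, in brackets, the rank above or below it. Filled boxes are coding exons, open boxes untranslated parts, grey boxes the neighbouring genes, and red circles mark the 3 optimal peaks. In each list the regions near the 5′ end and at intron 2 stand far above the rest, at 823 and 762 in the pooled list.

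How far the replicates gave the same picture was asked for each peak. Near the 5′ end, replicate 1 had a signal of 542 at rank 8 and replicate 2 a signal of 257 at rank 7, each of 30000 regions. At intron 2, replicate 1 had 522 at rank 10 and replicate 2 had 246 at rank 9. Both strong peaks were thus among the 10 strongest regions of each replicate, and their order was the same in both. The list by which the gene was chosen was made from both replicates, so high ranks in each follow in part from that choice. Signals differ in scale between the lists, so they were set against the median of their own list. The first peak was 31.4 times the median in replicate 1, 28.2 times in replicate 2 and 33.5 times in the pooled list. That at intron 2 was 30.2, 27.1 and 31.0 times the median in the same lists. The ratio of the first peak to the second was 1.04 in each replicate and 1.08 in the optimal list. The replicate summits of the first peak stood 33 bp apart, at 5661275 in replicate 1 and 5661242 in replicate 2, and those of the second 12 bp apart, at 5661804 and 5661816. Between the optimal regions of the pair lay 189 bp, all within intron 1 (exonic in the transcript that keeps it), and their summits were 564 bp apart.

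Of all 3052 optimal peaks, 5 ranked within the first 10 in both replicates. The pair in mdt-26, by which the gene was chosen, made up 2 of them. The other 3 lay at the genes sls-2.4, sls-2.2 and sls-2.1 for SL2 RNAs, which supply the spliced leader of downstream operon genes. Within the first 20 in both replicates there were 9, and within the first 100 there were 40. Some peaks of about the same pooled signal had ranks further apart in the replicates, and others had ranks close together. The peak in the noncoding gene C30E1.9 at rank 5, next below the first mdt-26 peak with a signal of 780, ranked 2 in replicate 1 and 72 in replicate 2. That in the protein-coding gene F58G1.7 at rank 8, next below the second mdt-26 peak with a signal of 736, ranked 19 in replicate 1 and 1 in replicate 2. Just above the first mdt-26 peak stood sls-2.1 with 991. The peak at rank 10, in a noncoding gene on chromosome IV, had a signal of 696 and ranked 11 in replicate 1 and 8 in replicate 2. That at rank 11, in the noncoding gene F44E5.16, had 684 and ranked 4 and 339. The peak in the protein-coding gene tos-1 at rank 12 had 677 and ranked 13 and 10. The limit of the 10 strongest thus falls in a narrow step.

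**Figure D2:**
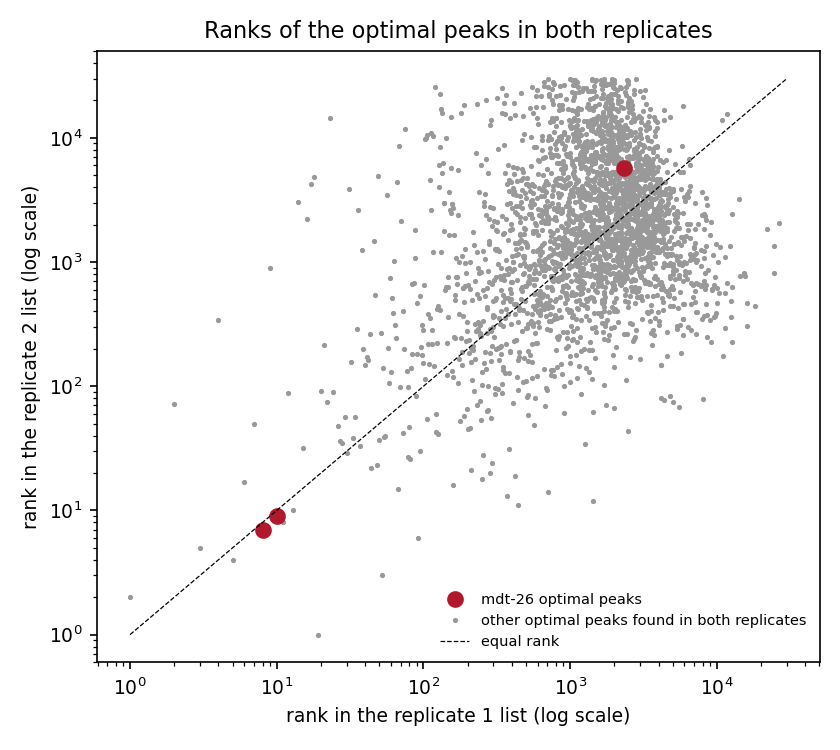
Rank of each optimal peak in replicate 1 (horizontal) and replicate 2 (vertical), both on log scales, for peaks with a region within 200 bp in both lists; large red points are the 3 peaks of mdt-26 and the dashed line marks equal ranks. The strong pair lies near the line at ranks 8 and 7 and ranks 10 and 9, and the peak in exon 5 lies at ranks 2311 and 5695.

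The regions of exon 5 and intron 6 stood in a different order in the replicates. At the optimal peak in exon 5, replicate 1 had its summit at 5662664 with a signal of 48.3 at rank 2311, and replicate 2 had its nearest summit 90 bp to the left of the optimal one, at 5662587, with 15.8 at rank 5695. The peak thus ranked among the 3052 strongest regions in replicate 1 and not in replicate 2. The replicate 2 summit lay in an exon of 1 of the 3 transcripts. In intron 6 the pooled list had a region with its summit at 5663396, a signal of 48.1 and rank 4557, the strongest of the interval that is not in the optimal list. There replicate 2 had the higher rank, with 27.0 at rank 1681 and a summit at 5663341, against 29.7 at rank 6264 with a summit at 5663333 in replicate 1. The third strongest region of the gene was therefore that of exon 5 in replicate 1 and that of intron 6 in replicate 2. For comparison, the lowest signal of the optimal list was 57.9, and 1199 optimal peaks were weaker than the one in exon 5.

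Further along the gene both replicates had a region in exon 7 and another in the 3′ untranslated part. In exon 7 the pooled summit at 5663808 had a signal of 44.4 at rank 5350, with 26.5 at rank 7684 in replicate 1 and 13.8 at rank 7504 in replicate 2. In the untranslated part of exon 8 the pooled summit at 5664833 had 26.7 at rank 13235, with 15.3 at rank 17646 in replicate 1 and 11.3 at rank 10577 in replicate 2. The median of the pooled list was 24.6, so this last region was close to an ordinary one. Replicate 2 alone had another summit in intron 6, at 5663542 with 5.33 at rank 28773, and another in exon 7, at 5664024 with 6.83 at rank 22029. Both were below that list's median of 9.10.

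From the 5′ to the 3′ end the signals of the gene fell at every step in the pooled list (823, 762, 72.5, 48.1, 44.4 and 26.7) and in replicate 1 (542, 522, 48.3, 29.7, 26.5 and 15.3). In replicate 2 (257, 246, 15.8, 27.0, 5.33, 13.8, 6.83 and 11.3) they did not fall at every step, and a value stood above the one before it at 3 places. The 2 strongest regions held 89.2% of the summed signal of the pooled summits in the gene, 89.9% in replicate 1 and 86.3% in replicate 2. The step from the second to the third strongest was 10.5 times in the pooled list, 10.8 times in replicate 1 and 9.11 times in replicate 2. In both replicates this step lay between the pair in the 5′ part and the rest.

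**Figure D3:**
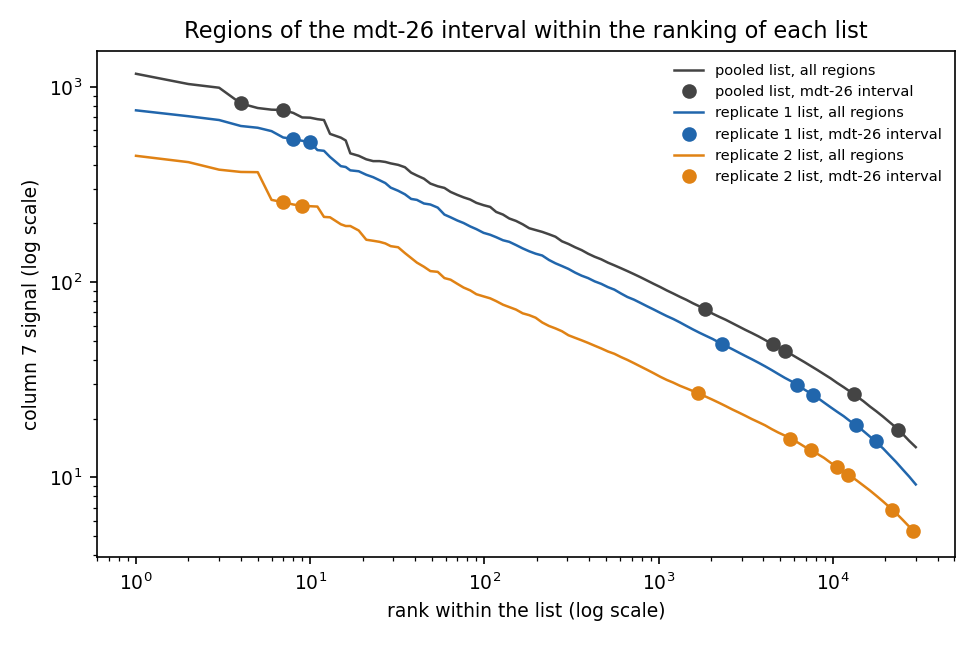
Column 7 signal against rank, both on log scales, for the 30000 regions of the pooled, replicate 1 and replicate 2 lists (lines), with the regions of the mdt-26 interval as points. In each list 2 points lie within the first 10 ranks, and the next one lies at rank 1853 in the pooled list, 2311 in replicate 1 and 1681 in replicate 2.

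Outside the gene the interval held little. Upstream, the pooled list had 1 summit 529 bp before the 5′ end of mdt-26, with a signal of 17.6 at rank 23711, and it lay inside ift-43, 134 bp from that gene's 5′ end. Replicate 1 had one 669 bp upstream, with 18.5 at rank 13586, also inside ift-43, and replicate 2 had none within 200 bp of the pooled one. No list had a summit in the 394 bp between the genes. The first mdt-26 summit lay 460 bp from the 5′ end of ift-43, so a window of 500 bp gives that gene the peak as well. Past the 3′ end, replicate 2 alone had a summit, 178 bp on, with 10.3 at rank 12289, and it lay inside C25H3.15, 92 bp from its 5′ end.

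The number of regions per length of the gene is given beside that of the genome, as a description. Its 4063 bp had 1.48 summits per kb in the pooled list, 1.48 in replicate 1 and 1.97 in replicate 2, against 0.299 per kb over the 6 chromosomes in each of these lists. The regions covered 46.6% of the gene in the pooled list, 44.9% in replicate 1 and 58.7% in replicate 2. Weak regions have 1 width per list, such as 320 bp in the pooled list, 300 bp in replicate 1 and 380 bp in replicate 2, so that the covered share follows the list as well as the number of regions. With 6 pooled summits inside, mdt-26 was 1 of 847 of 19973 protein-coding genes (4.24%) with 6 or more. Its 3 optimal summits put it among 324 genes (1.62%) with 3 or more in the interval, while 2375 genes (11.9%) had at least 1. These shares depend on gene length, and the figure per kb over the 6 chromosomes includes sequence outside genes. The gene was also chosen by 2 of the summits counted, in the shares and per kb alike, so nothing was read from either.

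Having 2 or more of the 100 strongest optimal summits in the interval was rare, at 17 protein-coding genes (0.0851%), a count that again includes what chose mdt-26. Apart from mdt-26 these were tos-1, W06H8.6, nhr-17, osm-11, nlp-76, T26A8.4, lgg-1, nurf-1, F58G1.7, mak-1, mnk-1, pck-2, T28F4.4, T28F4.5, ubq-1 and R107.5. The intervals of neighbouring genes can overlap, so the same summit can count for several genes. T28F4.4 and T28F4.5 shared the summit with 448, and nhr-17 and nlp-76 that with 316, so the 17 genes are not all separate places. Their highest signals ran from 288 at ubq-1, a polyubiquitin gene, to 736 at F58G1.7, against 823 at mdt-26. The regions of the strong pair were 311 bp and 365 bp wide. Of the optimal regions, 2928 (95.9%) had a width of exactly 320 bp, and of the 124 with another width 85 were among the 200 strongest.

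Genes with a profile most like that of mdt-26 were looked for by dividing each gene with its flanks into 8 zones, namely the 1000 bp upstream, 6 equal parts of the gene and the 500 bp past its 3′ end, and taking the highest pooled signal in each. Both strong summits of mdt-26 fall in the first part of the gene, so this measure counts them as 1. Among the 114 other protein-coding genes with at least 1 of the 100 strongest optimal summits, the median correlation with mdt-26 across the 8 zones was Pearson's r = -0.16. The 5 highest were pcf-11, known for its role in ending transcripts (0.97), Y39E4B.6 (0.97), dpy-11, a gene needed for body shape (0.97), cpz-1, a cathepsin gene (0.96), and H40L08.9 (0.90). In each of them the first part held the highest signal, 307 at pcf-11, 400 at Y39E4B.6, 440 at dpy-11, 355 at cpz-1 and 250 at H40L08.9. With 8 zones, of which 1 dominates, these coefficients describe only where the highest signal lies.

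**Figure D4:**
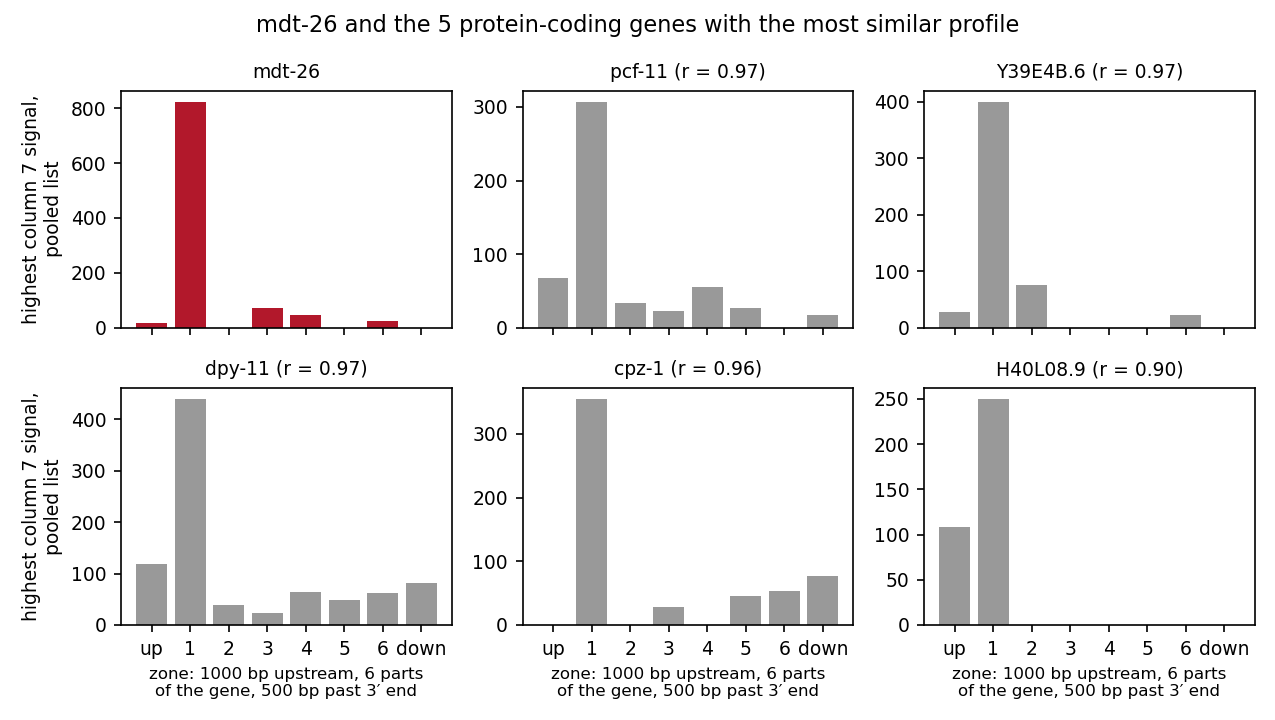
Highest column 7 signal of the pooled list in 8 zones (1000 bp upstream, 6 equal parts of the gene from 5′ to 3′, 500 bp past the 3′ end) for mdt-26 and the 5 genes with the highest correlation, each on its own vertical axis from 0. The first part of the gene holds the tallest bar in all 6 genes, from 250 at H40L08.9 to 823 at mdt-26.

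The other Mediator genes listed here had no peak of this strength. The list held mdt-26 and 26 other genes, namely those with a symbol that begins with mdt and rgr-1, sur-2, lin-25 and the 4 genes of the kinase module. The list goes by name, so it need not hold every Mediator gene, and mdt-28 is better known as the gene of a lipid droplet protein, perilipin. Within 500 bp of the 5′ end, 3 of the 26 others had an optimal summit (11.5%), against 6.07% of all protein-coding genes. These were mdt-22 (signal 88.8, rank 1170), mdt-6 (79.7, rank 1505) and mdt-9 (60.5, rank 2768), all of the core. The mdt-22 and mdt-6 genes encode subunits of the head module, which contacts the polymerase, and mdt-9 a subunit of the middle module. The mdt-26 signal was thus far above them, and no test was made since the gene was chosen by it. Medians of the highest pooled signal within 500 bp of the 5′ end were 27.2 over the 17 other Mediator genes with any pooled summit there and 31.5 over the 6346 protein-coding genes with one.

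Those 3 peaks were far lower in the replicates as well, and each stood in or near another gene. The mdt-22 summit, at -94 bp from the 5′ end, ranked 1001 in replicate 1 and 4340 in replicate 2 and lay inside clpp-1, which encodes a mitochondrial protease. The mdt-6 summit, 126 bp inside the gene, ranked 1667 in replicate 1 and 2214 in replicate 2. It stood 165 bp from the 3′ end of Y57E12AL.6. The mdt-9 summit, at -117 bp, ranked 3136 in replicate 1 and 21457 in replicate 2 and stood only 61 bp from the 5′ end of Y62E10A.23. None of them was within the first 1000 ranks of either replicate.

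In the whole interval 5 of the 26 other Mediator genes had an optimal summit (19.2%), against 11.9% of all protein-coding genes. The strongest was at mdt-4, another gene of the middle module, with a signal of 189 at rank 184 and ranks of 225 and 315 in replicates 1 and 2. It lay in the gene body, 1315 bp from the 5′ end, and 135 bp from the 3′ end of ZK546.19. A further summit of mdt-4, 283 bp past its 3′ end with a signal of 65.5, lay inside ZK546.19. A further one of mdt-6, at -932 bp from its 5′ end with a signal of 68.3, lay inside Y57E12AL.1. The fifth gene was mdt-19, also of the core, with a signal of 64.5 at a summit at -766 bp from the 5′ end. That summit stood 253 bp from the 5′ end of apb-1.

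In the kinase module 0 of 4 genes had an optimal summit in the interval, against 11.9% of all protein-coding genes. With only 4 genes, nothing was read from that count. The highest pooled signals in the interval were 51.1 at cdk-8, which encodes the kinase, and 20.4 at its cyclin gene cic-1. They were 24.9 at dpy-22 and 41.9 at let-19, which encode the large subunits of that module. Of these summits only that of cic-1 lay inside its gene. Those of cdk-8 and dpy-22 lay at -702 bp and -587 bp from the 5′ end, and that of let-19 lay 234 bp past the 3′ end. Among the other core genes without an optimal summit and with a pooled one, the highest was mdt-31 at 54.5 and the lowest sur-2 at 14.4. Of these, mdt-15, known in worms as a regulator of fat metabolism, reached 47.3 inside the gene. The interval of the scaffold gene rgr-1 reached 29.1, at a summit 187 bp past its 3′ end. That of lin-25, known like sur-2 from vulval development, reached 19.9, at a summit 43 bp past its 3′ end. No pooled summit lay in the intervals of mdt-1.2, mdt-10 and mdt-20. The depth of the libraries is unknown, so a gene without a region is one at which none was listed.

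**Figure D5:**
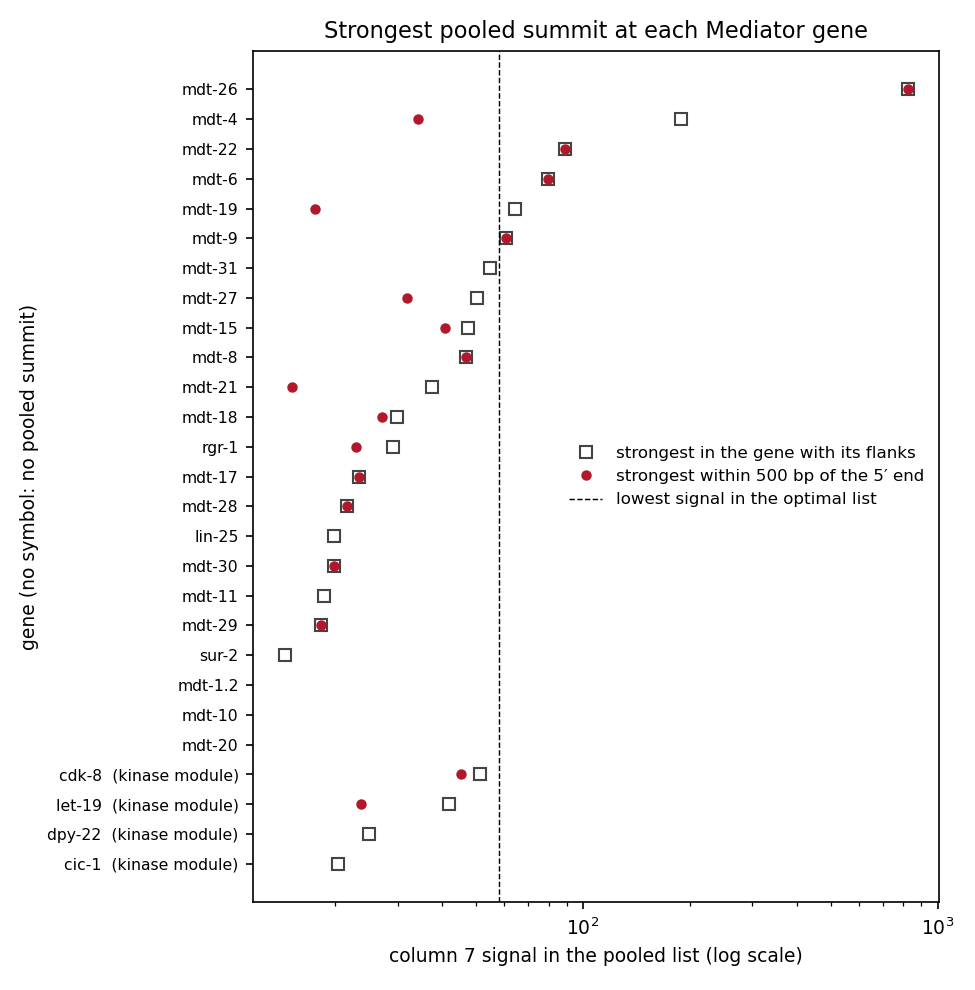
Highest column 7 signal of the pooled list (horizontal, log scale) at the 27 Mediator genes, within 500 bp of the 5′ end (filled circles) and in the gene with 1000 bp upstream and 500 bp past the 3′ end (open squares); the dashed line is the lowest signal of the optimal list, 57.9. mdt-26 at 823 is followed by mdt-4 at 189 and mdt-22 at 88.8, and genes without a mark had no pooled summit there.

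Genes of transcript elongation, among them counterparts of the partners of the mammalian subunit, were looked at in the same way. Of 11 such genes, 0 had an optimal summit within 500 bp of the 5′ end, against 6.07% of all protein-coding genes, and their highest pooled signals there ran up to 49.5, at emb-5. In the whole interval 1 of the 11 had an optimal summit (9.09%), against 11.9% of all protein-coding genes. This was the ELL gene ell-1, with 7 optimal summits at signals from 59.1 to 78.3. None of them lay nearer than 4104 bp to its 5′ end. The summit with 59.1 also lay inside another protein-coding gene and had no matching region in replicate 2. The ell-1 gene is 21214 bp long and had 30 pooled summits inside. The gene of its partner, eaf-1, had none in the optimal list and a highest pooled signal of 43.3 in the interval, 136 bp past its 3′ end. The highest pooled signals in the intervals of cdk-9, cit-1.1 and cit-1.2, which encode the elongation kinase P-TEFb, were 43.5, 40.4 and 43.3, all below the optimal list. Their summits lay at -163 bp and -124 bp from the 5′ ends of cdk-9 and cit-1.1, and 311 bp past the 3′ end of cit-1.2.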

How the data were processed

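The data are 8 deposited lists of ChIP-seq regions (narrowPeak format), 4 each in builds ce10 and ce11. In each build, going by the names of the deposited files, these are the optimal peaks kept by the irreproducible discovery rate and 3 permissive lists made as its input, 1 on pooled reads and 1 on each replicate. The ce11 permissive lists hold 30000 regions each. Column 7 of the deposited lists is the authors' signal value per region. Column 9 is a −log10 q value by the format of the deposited files, and 2667 optimal peaks share its highest value, so it orders few peaks. Which aligner, peak caller and threshold were used, and the depth, is not given in these sources. The replicates have separate biosamples per the labels. With 1 group, and a gene chosen by these values, no test was made.

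The ce11 lists were used with the Ensembl annotation (release 115) and the RefSeq sequence of WBcel235. Summits are the region start plus column 10, given 1-based, and ranks are by column 7 within a list. A replicate summit matched within 200 bp. The interval is 1000 bp upstream to 500 bp past the 3′ end. Sequence windows were searched with blastn 2.17.0. Counting was tested on made-up peaks. Genes named are mdt-26, its neighbours, those at the strongest peaks, the Mediator and elongation lists and the 5 genes of most similar profile. The genes with 2 or more of the 100 strongest summits were named after their values were seen. So were the genes beside the summits of other Mediator genes (clpp-1, Y57E12AL.6, Y57E12AL.1, Y62E10A.23, ZK546.19 and apb-1). The gene, lists and rules were chosen with earlier results of these data known.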

Additional observations from a re-analysis of the deposited data

How the results depend on the processing

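Of 23 alternatives for 4 results, 19 left the value within 1.5 times. The 3 optimal summits of mdt-26 became 5 among the 6104 strongest pooled regions, which add the regions of intron 6 and exon 7, and 2 in the stronger part of the optimal list (1526 peaks). Among the 3052 strongest regions of either replicate alone the count was 3, but not of the same 3 regions. Beside the strong pair, the third was that of exon 5 in replicate 1 and that of intron 6 in replicate 2. The rank of the strongest peak, 4 in the optimal list, was 7 without replicate 1 and 8 without replicate 2, and 1 by column 9, where it ties with 2667 optimal peaks in all. Matched by signal and width, an alternative added after the data were seen, the same 3 peaks stood in the ce10 list at ranks 4, 7 and 1852. All 7 pooled summits of the interval matched as well, but only 4 of 7 from replicate 1 and 1 of 9 from replicate 2, and neither strong peak of replicate 2 matched; the cause was not tested. Mediator genes with an optimal summit near the 5′ end, 4 with mdt-26, numbered 3 to 6 under all alternatives, and 3 to 5 with a single replicate. The count was 6 among the 6104 strongest pooled regions and 6 in the whole interval. That interval held an optimal summit at 11.9% of all protein-coding genes, against 6.07% within 500 bp of the 5′ end. For the other alternatives the share over all genes is not given here. Summits inside mdt-26 numbered 6 in the pooled list, and 6 and 8 in the replicate lists. Unknown depth and signal scale limit every value to comparisons within a list.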

Other observations

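Outside the 3 peaks of mdt-26, the next optimal summits lay 54891 bp before its 5′ end, with a signal of 75.7 at rank 1686, and 23905 bp past its 3′ end, with 80.8 at rank 1460. The optimal list had 0.0304 summits per kb over the 6 chromosomes. Of the 10 strongest optimal peaks of the genome, 5 lay on chromosome II. Among its 549 optimal peaks those of mdt-26 were the third and the fourth strongest, after sls-2.2 and sls-2.1, whose summits lay 118 kb to the left and 184 kb to the right of the first mdt-26 summit.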
